A study of Mus musculus with 21 samples.

Results

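The genes described are 10 members of the immediate early response outside the AP-1 family: Egr1, Egr2, Egr3, Srf, Nr4a1, Ier2, Ier3, Ier5, Ier5l and Zfp36. They were taken by symbol from the deposited expression table, which holds 20900 genes, and all 10 were found. The cells were E14 mouse embryonic stem cells, a 129 strain line cultured in serum with leukaemia inhibitory factor (LIF), and RNA-seq libraries were made from their poly(A) RNA. The groups were untreated cells at 0 h, cells given 1 µM BMH-21 for 2, 4 or 8 h, and cells given 1 µM CX-5461 for 2, 4 or 8 h, each with 3 replicates, so 21 libraries in 7 groups. Both compounds block transcription of ribosomal DNA by RNA polymerase I, and the comparisons ask how these genes stood after each time in each inhibitor. The inhibitor was added with a change of medium and the 0 h cells were the only control, so the effects of the inhibitor, of the new medium and of time cannot be told apart in any comparison with control. Comparisons between the inhibitors at 1 time are free of that limit. The labels call the samples replicates without naming separate cultures. The p-values therefore rest on a spread between these samples, partly shared over genes, which may be technical.

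Immediate early genes are transcribed within minutes of a stimulus without new protein synthesis, and their mRNAs are usually short-lived. Many are driven by serum response factor (SRF), which binds the CArG box in their promoters together with ternary complex factors of the ETS family downstream of ERK signalling, or with myocardin-related factors downstream of actin. Others respond through CREB at the cyclic AMP response element. In embryonic stem cells ERK signalling and serum keep several of these genes active, and Egr1 is a common readout of that activity. The earliest treated libraries were taken at 2 h, so a first peak within minutes was not sampled.

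The promoters of the 10 genes were looked up in the RefSeq table of mouse GRCm38.p6 (mm10), which gives 250 bases before and 50 after each start. Windows were found for 7 of the 10. Egr1, Egr3 and Ier2 had none, so their promoters were not searched for any motif. A CArG box on either strand was present for 3 of these 7, Srf, Egr2 and Zfp36, against 1.81% of the 27025 genes with a window. The stretches below are shown because they hold the CArG boxes, in capitals, to which SRF binds, and the Egr2 stretch at the later start also has TGACG, the core of the cyclic AMP response element, in capitals on both strands.
Srf, chr17:46556195-46556264, minus strand: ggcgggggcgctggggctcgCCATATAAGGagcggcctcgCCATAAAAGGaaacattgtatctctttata
Egr2, chr10:67537474-67537523, plus strand: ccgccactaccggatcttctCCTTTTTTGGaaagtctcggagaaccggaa
Egr2, chr10:67537738-67537838, plus strand: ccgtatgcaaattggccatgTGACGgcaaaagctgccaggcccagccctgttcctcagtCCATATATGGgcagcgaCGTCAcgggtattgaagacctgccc
Zfp36, chr7:28379267-28379296, minus strand: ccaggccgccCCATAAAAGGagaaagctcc
Srf had 2 CArG boxes in a row. The Zfp36 stretch lies before the RefSeq start but inside the first exon of a longer GENCODE M21 transcript of the gene, so it is also transcribed sequence in that model. The other stretches are outside the exons of their genes. Both Egr2 stretches nevertheless lie inside the GENCODE M21 span of Egr2, whereas the Srf stretch lies before that of Srf. The 2 Egr2 stretches belong to different listed starts, and each had 1.

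Nr4a1 had no CArG box in its window and is shown for its 4 copies of the TGACG core, all on the reverse strand and therefore read as CGTCA in capitals. Its stretch lies inside the GENCODE M21 span of Nr4a1 and outside the exons.
Nr4a1, chr15:101266596-101266830, plus strand: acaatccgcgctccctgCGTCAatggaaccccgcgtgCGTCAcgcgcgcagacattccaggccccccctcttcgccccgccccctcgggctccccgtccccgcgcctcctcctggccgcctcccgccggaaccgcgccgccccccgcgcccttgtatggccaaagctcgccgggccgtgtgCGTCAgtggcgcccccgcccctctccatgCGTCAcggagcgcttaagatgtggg
The core TGACG, which also lies inside the full site TGACGTCA, was found on either strand in 3 of 7 members (Egr2, Nr4a1 and Srf) against 23% of all genes. The full site was in 0 of 7 windows, against 2.03% of genes. CCGGAA, the core bound by ETS factors, was in 4 of 7 (Egr2, Nr4a1, Srf and Zfp36) against 16.7% of genes. The EGR site GCGTGGGCG was in 0 of 7 against 0.707%, and TATAAA in 1 of 7 (Srf) against 15.7%. These matches describe letters in the window and were not tested for binding.

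Values are log2 expression as deposited, close to log2 counts per unit of an effective library size (log2 CPM). A value of 0 stood for 42 to 86 reads, in libraries of 46604397 to 62812641 reads. The deposited effective sizes carried a factor per library of 0.832 to 1.375 whose origin is not given in the sources used here. Centring each library on its median over the tested genes shifted the log2 fold changes against control by common amounts. The deposited change minus the centred one in the BMH-21 comparisons was -0.08 (2 h), -0.15 (4 h) and -0.21 (8 h), and -0.15, -0.16 and 0.22 in those of CX-5461. It was -0.43 for BMH-21 against CX-5461 at 8 h. Where centring altered the call of a member, the centred value is given too. Tests are from limma over 14666 genes with a log2 value above 0 in at least 3 libraries, with Benjamini-Hochberg adjusted p under 0.05 as the threshold. "Rose" and "fell" are used for changes past it. All 10 members were tested, but 2 of them entered through the groups where they were highest. Egr3 was above 0 in 4 libraries, 1 at 4 h and 3 at 8 h of CX-5461, and Egr2 in 7, the 6 at 8 h and 1 at 4 h of BMH-21. With no filter their 8 h calls against control held, with adjusted p = 2.6e-10 to 6.4e-05. Over all comparisons 5 of the 130 member values lost their call with no filter.

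The cells carried markers of embryonic stem cells in every group. The summed level of 10 such markers, which include Pou5f1, Sox2 and Nanog, was 7010 to 8000 CPM in the control libraries. BMH-21 libraries had 5750 to 6430 at 2 h, then 3880 to 4500 at 4 h and 3080 to 3310 at 8 h, and with CX-5461 5230 to 6160, 3910 to 4680 and 6040 to 6510 at the same times. All 10 fell after 4 h of either inhibitor (8 of 10 after centring for BMH-21) and after 8 h of BMH-21. Of all genes 44.9% (41.5% centred) and 51.2% fell after 4 h of BMH-21 and CX-5461, and 56.9% after 8 h of BMH-21. For 8 fibroblast markers the sum was 32.5 to 36.9 in control and highest, 53.8 to 66.3, after 4 h of BMH-21. It was 13.2 to 16.5 in control for 6 endoderm markers, 6.95 to 8.52 for 5 mesoderm markers and 217 to 240 for 6 neural markers. The other groups ranged from 9.96 to 15.4 for endoderm, 5.63 to 13.3 for mesoderm and 107 to 284 for neural genes. Sums can hide moves of single markers. After 8 h of BMH-21 the log2 change was -3.05 for Pax6 (neural) and 3.34 for Mesp1 (mesoderm). Mesp1 was tested because of groups where it was high. The part of these shifts in the changes of the immediate early genes was not tested, and in bulk RNA fewer cells expressing a gene and less RNA per cell cannot be told apart.

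In untreated cells the 10 genes covered a wide range. Per kilobase of the longest coding transcript, Ier2 had the highest control level, 6.93 on the log2 scale, followed by Egr1 at 5.03, Srf at 4.90, Nr4a1 at 3.79 and Ier5l at 3.40. Ier3 stood at 2.59, Zfp36 at 2.28 and Ier5 at 1.02. Egr2 at -2.79 and Egr3 at -4.30 were close to silent, with 11 to 29 and 6 to 16 reads per control library.

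**Figure D1:**
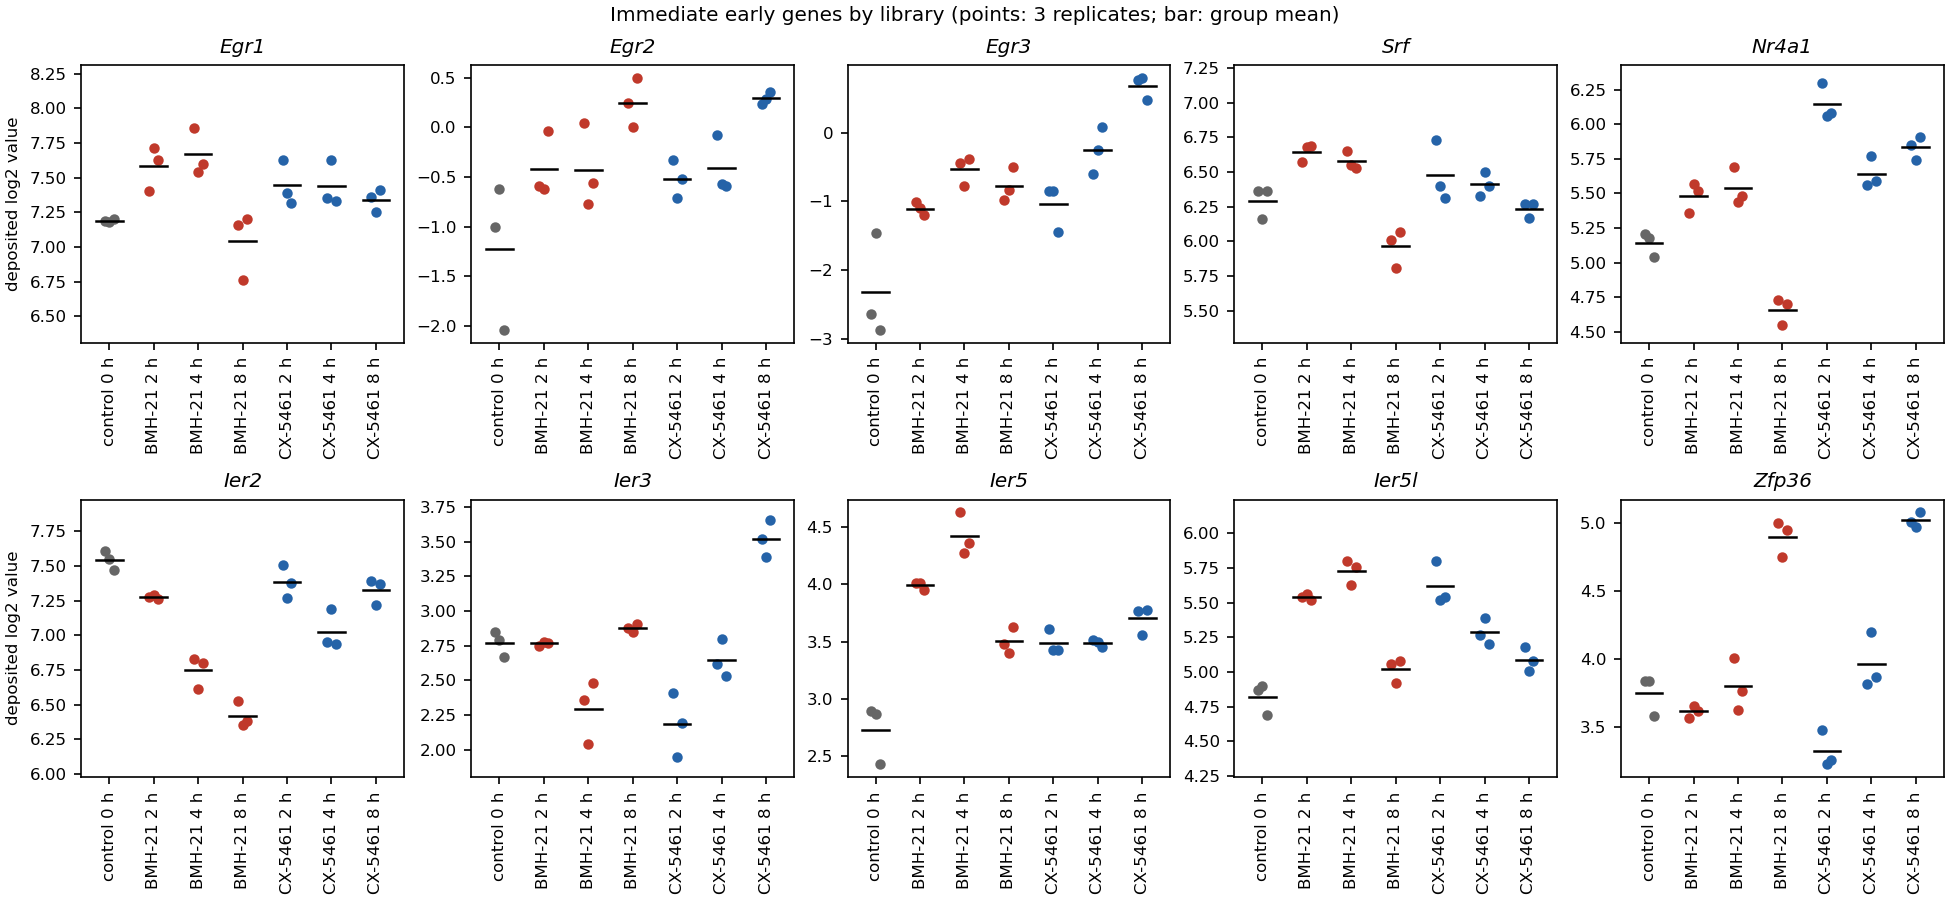
Deposited log2 value of each of the 10 genes (vertical axis, scale set per panel) in the 21 libraries, grouped on the horizontal axis by inhibitor and time. Points are the 3 replicates and the bar is the group mean; Egr3 climbs from a control mean of -2.32 to 0.69 after 8 h of CX-5461, while Ier2 descends from 7.54 to 6.42 along the BMH-21 times.

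The genes rose more often than they fell in each comparison with control, with Egr2 and Egr3 counted, and not all followed the same course. After 2 h of BMH-21, 7 of the 10 were called and each of these rose, where 8.48% of the 14666 genes rose and 11.2% fell. After 4 h 7 rose and 2 fell, against 22.1% and 44.9% of all genes. After 8 h 4 rose and 3 fell, against 24.5% and 56.9%. With CX-5461, 5 rose and 2 fell at 2 h, against 7.45% and 20.5% of genes, and 6 rose and 1 fell at 4 h, against 19.8% and 51.2%. At 8 h 7 rose as deposited and 0 fell, against 35.1% and 14.3% of genes. That absence of falls depended on the scaling: after centring 6 rose and 2 (Ier2 and Srf) fell, against 29.3% and 44.7%.

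The centred splits for BMH-21 were 7 up and 1 down at 2 h (18.6% and 17.5% of all genes), 8 and 2 at 4 h (32.2% and 41.5%) and 6 and 2 at 8 h (33.3% and 51.3%). For CX-5461 they were 7 and 2 at 2 h (15.8% and 17.8%) and 8 and 1 at 4 h (28.5% and 45.7%). More members rose than fell in each of the 6 comparisons on both scales, and Egr2 and Egr3 were among the risers in each. Both entered the tests through groups where they were highest. At 8 h of BMH-21 as deposited the other risers were Ier5 and Zfp36, and Ier2, Srf and Nr4a1 fell.

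With BMH-21 the median log2 fold change of the 10 ran 0.37, 0.43 and 0.16 over the 3 times, where that of all tested genes was -0.07, -0.21 and -0.40. For CX-5461 it was 0.48, 0.35 and 0.72, beside -0.18, -0.28 and 0.11. Centring kept the medians of the 10 above 0, from 0.37 to 0.62. All these medians include Egr2 and Egr3, which entered the tests through groups where they were highest. The other members lay on both sides of 0 at 8 h of BMH-21 as deposited. Egr1, Ier2, Srf and Nr4a1 were at -0.15, -1.12, -0.33 and -0.48, and Ier3, Ier5, Ier5l and Zfp36 at 0.11, 0.77, 0.20 and 1.14. The 6 comparisons share the same 3 control libraries.

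**Figure D2:**
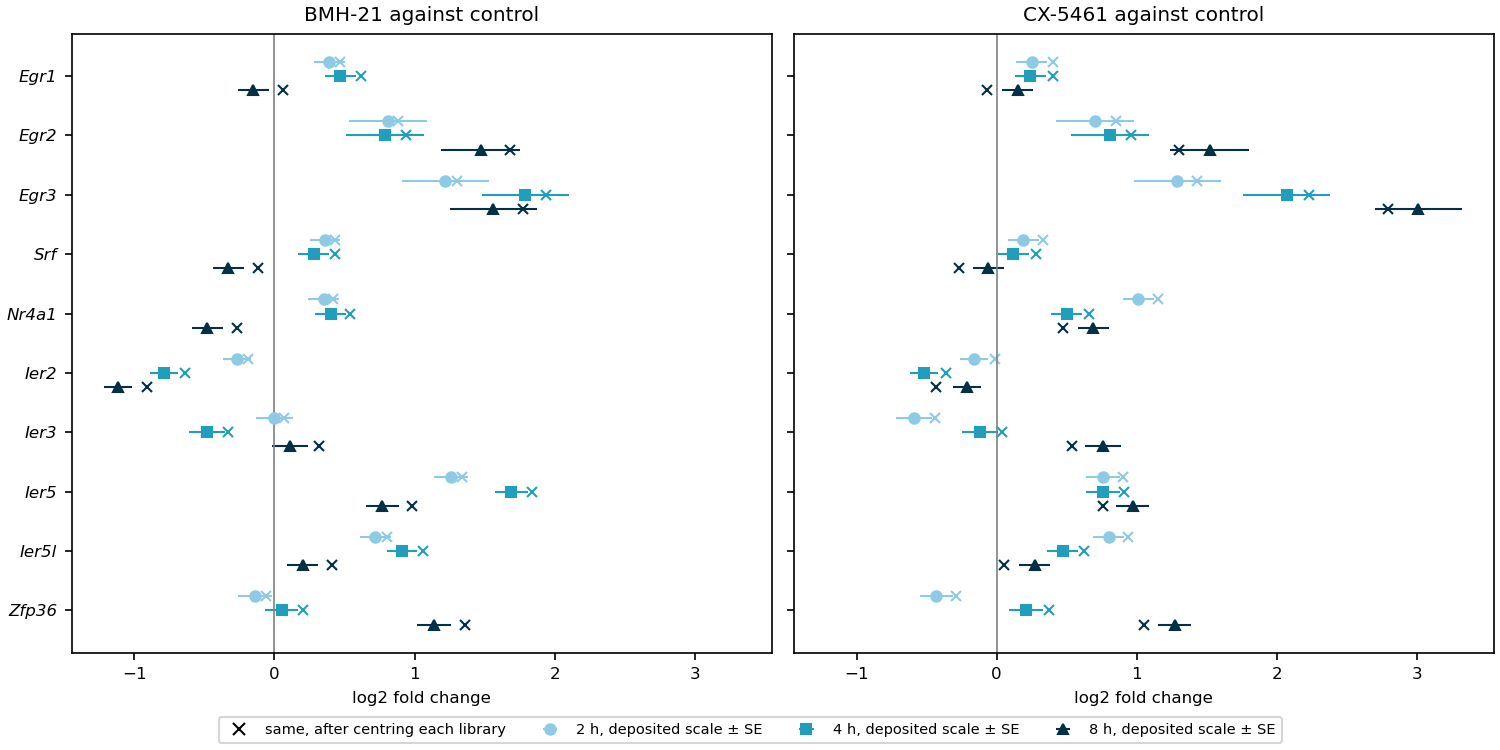
Log2 fold change against the 0 h control (horizontal axis) of the 10 genes after 2, 4 and 8 h of BMH-21 (left) and CX-5461 (right). Filled symbols with bars are limma estimates ± SE on the deposited scale and crosses the same after centring each library; Ier5 and Egr3 lie right of 0 at every time, Ier2 lies left of 0, and Zfp36 moves far right only at 8 h (1.14 and 1.27).

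The 3 EGR zinc finger factors, which bind the same GC-rich site, parted after treatment. Egr1, the most abundant of them, read 7.19, 7.18 and 7.20 in the control libraries. After 2 h of BMH-21 it read 7.40, 7.71 and 7.63 and after 4 h 7.86, 7.54 and 7.60, all above control. Egr1 rose by 0.39 ± 0.11 (log2 ± SE, adjusted p = 0.0042) at 2 h and by 0.47 ± 0.11 (adjusted p = 7e-05) at 4 h, a 1.39-fold change. At 8 h it read 7.16, 6.76 and 7.20, overlapping control, and had dropped by 0.63 ± 0.11 from the 4 h level (adjusted p = 4e-07). With CX-5461 the values were 7.63, 7.39 and 7.32 at 2 h, 7.35, 7.63 and 7.33 at 4 h and 7.36, 7.25 and 7.41 at 8 h. Every CX-5461 library thus stood above every control library, by small amounts. The change was 0.25 at 2 h (adjusted p = 0.066), 0.24 at 4 h (adjusted p = 0.04) and 0.15 at 8 h (adjusted p = 0.27). After centring Egr1 rose by 0.40 at both 2 and 4 h of CX-5461 (adjusted p = 3e-06 and 6.3e-07) and was at -0.07 at 8 h. The 4 h call on the deposited scale was lost without CX-5461 4 h replicate 2 (0.15) and without any 1 of the control libraries (0.24 to 0.25).

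Egr3, which acts downstream of calcium and growth factor signals in neurons and lymphocytes, had the widest range of the 10. It read -2.64, -1.46 and -2.87 in control, or 7, 16 and 6 reads. BMH-21 brought it to -1.01, -1.10 and -1.20 at 2 h, -0.44, -0.77 and -0.38 at 4 h and -0.98, -0.83 and -0.50 at 8 h, with 19 to 48 reads per library. No treated library fell to the control range. Egr3 rose by 1.22 ± 0.31, 1.79 ± 0.31 and 1.56 ± 0.31, or 2.33-, 3.46- and 2.94-fold (adjusted p = 0.0014, 1.8e-07 and 3e-06). With CX-5461 it read -0.84, -0.84 and -1.44 at 2 h, -0.60, -0.25 and 0.09 at 4 h and 0.77, 0.80 and 0.48 at 8 h, and the 8 h libraries, with 60 to 90 reads, were above all others. The rises were 1.29, 2.07 and 3.01 (each ± 0.31), or 2.44-, 4.20- and 8.05-fold (adjusted p = 0.00068, 3.3e-09 and 7.2e-16). From 4 to 8 h of CX-5461 Egr3 rose by a further 0.94 ± 0.31 (adjusted p = 0.0061), which was 0.57 after centring (adjusted p = 0.094). Setting values below 0 to 0 removed every Egr3 call except those that include 8 h of CX-5461, because the other groups lie below 0.

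Egr2, known from hindbrain segmentation and myelination, was nearly as low. Its control values were -1.0, -0.62 and -2.04 (23, 29 and 11 reads), so replicate 3 stood well below the others. Under BMH-21 it read -0.59, -0.62 and -0.04 at 2 h and 0.05, -0.77 and -0.56 at 4 h. At 2 and 4 h of CX-5461 it lay between -0.71 and -0.08. The 4 h BMH-21 and 2 h CX-5461 groups overlapped control, and the 2 h BMH-21 and 4 h CX-5461 groups lay just above it. The calls at 2 and 4 h, with log2 changes of 0.70 to 0.81 (adjusted p = 0.0072 to 0.047), rested on control replicate 3: without it the changes were 0.29 to 0.40 and none was called. Other single libraries also ended these calls, with changes of 0.55 to 0.81: BMH-21 2 h replicate 3, BMH-21 4 h replicate 1, CX-5461 4 h replicate 1 and, for CX-5461 at 2 h, control replicate 1 or any of its own 3. At 8 h Egr2 was well clear of control, with 0.25, 0.00 and 0.50 under BMH-21 and 0.24, 0.29 and 0.36 under CX-5461. It rose by 1.47 ± 0.28 (2.77-fold, adjusted p = 8.9e-07) and 1.52 ± 0.28 (2.86-fold, adjusted p = 1.2e-06), and by 1.06 and 1.11 without control replicate 3.

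Srf, the factor at the CArG box that also has CArG boxes in its own promoter, changed little. Its control values were 6.36, 6.16 and 6.36. After BMH-21 it read 6.57, 6.68 and 6.69 at 2 h and 6.65, 6.55 and 6.53 at 4 h, all above control. It then read 6.01, 5.81 and 6.07 at 8 h, all below control. The changes were 0.36 ± 0.11 (adjusted p = 0.0093), 0.28 ± 0.11 (adjusted p = 0.016) and -0.33 ± 0.11 (adjusted p = 0.0036). Without control replicate 2 the first of these was 0.29 (adjusted p = 0.11) and the second 0.21 (adjusted p = 0.12), and without BMH-21 2 h replicate 3 the first was 0.33 (adjusted p = 0.052). After centring the 8 h change was -0.12 (adjusted p = 0.1), while the fall from 4 to 8 h held on both scales (-0.61 as deposited and -0.55 centred). CX-5461 libraries ran from 6.31 to 6.73 at 2 h, 6.33 to 6.50 at 4 h and 6.17 to 6.27 at 8 h. As deposited Srf was within the threshold at all 3 times (0.19, 0.12 and -0.06). After centring it rose by 0.33 and 0.28 at 2 and 4 h and fell by 0.27 at 8 h (adjusted p = 0.00035, 0.00071 and 0.00083).

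Nr4a1, the orphan nuclear receptor Nur77 with the TGACG cores shown above, was lower with BMH-21 than with CX-5461 at 2 and 8 h. At 4 h the difference was -0.10 as deposited (adjusted p = 0.55) and -0.11 after centring (adjusted p = 0.017). Its control values were 5.21, 5.18 and 5.04. CX-5461 took it to 6.30, 6.06 and 6.08 at 2 h, the highest of any group, then to 5.56, 5.77 and 5.59 at 4 h and 5.85, 5.74 and 5.91 at 8 h. All 9 libraries were above control. Nr4a1 rose by 1.01 ± 0.11 at 2 h (2.01-fold, adjusted p = 5.3e-14), 0.50 ± 0.11 at 4 h (adjusted p = 3.1e-05) and 0.69 ± 0.11 at 8 h (adjusted p = 2.7e-08). The drop from 2 to 4 h was itself past the threshold (-0.51 ± 0.11, adjusted p = 4.4e-05). BMH-21 gave 5.36, 5.57 and 5.52 at 2 h, 5.69, 5.44 and 5.48 at 4 h and 4.73, 4.55 and 4.70 at 8 h. Thus the first 6 of these libraries were above control and the last 3 below. The changes were 0.35 ± 0.11 (adjusted p = 0.014), 0.40 ± 0.11 (adjusted p = 0.00087) and -0.48 ± 0.11 (adjusted p = 3.8e-05), and the last was -0.27 after centring (adjusted p = 5.6e-07). The 2 h call was lost without control replicate 3 (0.29) or without BMH-21 2 h replicate 2 (0.30) or 3 (0.33). Nr4a1 had the closest replicates of the 10 once libraries were centred, with an SD of 0.03 within groups against 0.11 as deposited.

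The IER genes did not follow a common course. Ier5 and Ier5l encode related nuclear proteins that act with protein phosphatase 2A, Ier5 on heat shock factor 1. Ier5 read 2.89, 2.87 and 2.43 in control. After BMH-21 it read 4.01, 4.01 and 3.95 at 2 h, 4.63, 4.27 and 4.36 at 4 h and 3.48, 3.40 and 3.63 at 8 h. The 4 h libraries were the highest of all groups. Ier5 rose by 1.26 ± 0.12 (2.40-fold), 1.69 ± 0.12 (3.22-fold) and 0.77 ± 0.12 (1.71-fold), with adjusted p = 5.6e-17, 2.8e-26 and 5.5e-09. With CX-5461 it was level, reading 3.61, 3.43 and 3.43 at 2 h, 3.51, 3.50 and 3.45 at 4 h and 3.77, 3.56 and 3.78 at 8 h. The rises were 0.76, 0.76 and 0.97 (each ± 0.12, adjusted p = 1.2e-07, 2.1e-08 and 4.3e-12), and neither step between times was past the threshold (0.00 and 0.22).

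Ier5l read 4.87, 4.90 and 4.69 in control. With BMH-21 it read 5.54, 5.56 and 5.52 at 2 h and 5.80, 5.63 and 5.76 at 4 h, and 2 h of CX-5461 gave 5.80, 5.52 and 5.54. These 3 groups held its highest values. BMH-21 raised it by 0.72 ± 0.11 and 0.91 ± 0.11, and it rose by 0.80 ± 0.11 with CX-5461 at 2 h (adjusted p = 3e-08, 6e-13 and 9.7e-10). CX-5461 libraries then came down to 5.20 to 5.39 at 4 h and 5.01 to 5.18 at 8 h, and BMH-21 libraries to 4.92 to 5.08 at 8 h. These were still above every control library. At 8 h the change was 0.20 with BMH-21 (adjusted p = 0.079, but 0.41 and adjusted p = 2e-07 after centring) and 0.27 with CX-5461 (adjusted p = 0.031, but 0.05 and adjusted p = 0.37 after centring). The CX-5461 call was also lost without control replicate 3 (0.20) or without CX-5461 8 h replicate 1 (0.22) or 3 (0.27).

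Ier2, a short nuclear protein and the most abundant of the 10 per kilobase, went the other way. It read 7.61, 7.55 and 7.47 in control. BMH-21 gave 7.28, 7.29 and 7.26 at 2 h, 6.83, 6.61 and 6.80 at 4 h and 6.53, 6.35 and 6.38 at 8 h, with no overlap between successive times. The change was -0.27 ± 0.10 at 2 h (adjusted p = 0.057, and -0.19 with adjusted p = 0.011 after centring). Ier2 fell by 0.79 ± 0.10 at 4 h (adjusted p = 3.7e-11) and by 1.12 ± 0.10 at 8 h, to 0.46 of control (adjusted p = 8.8e-19). With CX-5461 it read 7.51, 7.27 and 7.38 at 2 h, 6.95, 7.19 and 6.94 at 4 h and 7.39, 7.22 and 7.37 at 8 h. The 4 h libraries were the lowest of these. Ier2 fell by 0.52 ± 0.10 at 4 h (adjusted p = 6.9e-06). At 8 h the change was -0.21 as deposited (adjusted p = 0.078) and -0.43 after centring (adjusted p = 4.4e-07). The rise of 0.30 from 4 to 8 h as deposited (adjusted p = 0.0088) was -0.07 after centring (adjusted p = 0.3).

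Ier3, an inhibitor of apoptosis in several settings, dipped and recovered at times that differed between the inhibitors. It read 2.85, 2.79 and 2.67 in control and 2.75, 2.78 and 2.77 at 2 h of BMH-21, a difference of 0.00 ± 0.13. At 4 h of BMH-21 it read 2.36, 2.04 and 2.48 and fell by 0.48 ± 0.13 (adjusted p = 0.00083), and at 8 h it read 2.88, 2.85 and 2.91. That last change was 0.11 (adjusted p = 0.44), or 0.32 after centring (adjusted p = 0.0044). With CX-5461 the low point came at 2 h, with 2.41, 1.95 and 2.19, a fall of 0.59 ± 0.13 (adjusted p = 0.00023). It then read 2.62, 2.80 and 2.53 at 4 h, overlapping control, and 3.52, 3.39 and 3.66 at 8 h, above every other library. Ier3 rose by 0.76 ± 0.13 at 8 h of CX-5461 (1.69-fold, adjusted p = 3.6e-07) and by 0.54 after centring.

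Zfp36 encodes tristetraprolin, which binds AU-rich elements and speeds the decay of mRNAs, many immediate early ones among them. It read 3.84, 3.84 and 3.58 in control. At 2 h it read 3.57, 3.66 and 3.62 under BMH-21 and 3.48, 3.23 and 3.26 with CX-5461, the only group below every control library. The change at 2 h was -0.14 with BMH-21 (adjusted p = 0.47) and -0.43 ± 0.12 with CX-5461 (adjusted p = 0.0029). At 4 h it read 4.01, 3.63 and 3.77 under BMH-21 and 3.82, 4.20 and 3.87 with CX-5461. These overlapped control, and the changes of 0.05 and 0.21 were not past the threshold, while after centring Zfp36 rose by 0.20 (adjusted p = 0.0024) and 0.37 (adjusted p = 1.9e-06). At 8 h it read 5.00, 4.75 and 4.95 under BMH-21 and 5.01, 4.97 and 5.08 with CX-5461, far above every earlier library. Zfp36 rose by 1.14 ± 0.12 (2.21-fold, adjusted p = 1.8e-16) and 1.27 ± 0.12 (2.40-fold, adjusted p = 1.9e-18), and by 1.36 and 1.05 after centring.

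Over time the genes moved in different directions. From 2 to 4 h of BMH-21, 1 of the 10 rose (Ier5) and 2 fell (Ier2 and Ier3), against 20.8% and 34.8% of all genes. After centring Egr1, Egr3, Nr4a1, Ier5l and Zfp36 also rose at this step, by 0.16, 0.64, 0.12, 0.26 and 0.26. Centred shares of all genes are not given for the steps between times, so centred calls there are not read as particular to the members. From 4 to 8 h 3 rose (Egr2, Ier3 and Zfp36) and 6 fell (Egr1, Ier2, Ier5, Ier5l, Srf and Nr4a1), against 18.6% and 37.8%. The falls at this step ran from -0.33 for Ier2 to -0.92 for Ier5. The rise of Egr2 here was 0.68 (adjusted p = 0.029) with overlapping groups, and it was not called without BMH-21 4 h replicate 2 (0.51) or 3 (0.61) or without BMH-21 8 h replicate 1 (0.68) or 3 (0.56). With CX-5461, 3 rose (Egr3, Ier3 and Zfp36) and 3 fell (Ier2, Ier5l and Nr4a1) from 2 to 4 h, against 20.7% and 26.8% of genes. The Egr3 step of 0.79 (adjusted p = 0.028) was not called without CX-5461 2 h replicate 3 (0.59) or without CX-5461 4 h replicate 2 (0.78) or 3 (0.62). The Ier5l step of -0.33 (adjusted p = 0.0079) was not called without CX-5461 2 h replicate 1 (-0.24) or CX-5461 4 h replicate 3 (-0.29). From 4 to 8 h 5 of the 10 were called (Egr2, Egr3, Ier2, Ier3 and Zfp36), all higher, a share near the 58.8% of genes that rose at this step, while 4.85% fell. After centring 2 of the 5, Ier3 and Zfp36, were still called higher. Egr2 (0.71 as deposited, adjusted p = 0.02) was then at 0.34 (adjusted p = 0.29), Egr3 at 0.57 and Ier2 at -0.07, and Egr1, Srf, Nr4a1 and Ier5l were called lower (-0.47, -0.55, -0.18 and -0.57). These 3 deposited calls also failed without CX-5461 4 h replicate 2 (Egr2 0.63), 3 (Egr2 0.62, Ier2 0.26) or 1 (Egr3 0.77, Ier2 0.26), and without CX-5461 8 h replicate 3 (Egr2 0.68) or 1 (Ier2 0.27).

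In the order of the 7 groups, control was lowest for Egr2, Egr3, Ier5 and Ier5l and highest for Ier2. BMH-21 8 h was lowest for Egr1, Ier2, Srf and Nr4a1, and CX-5461 2 h for Ier3 and Zfp36. CX-5461 8 h was highest for Egr2, Egr3, Ier3 and Zfp36, BMH-21 4 h for Egr1, Ier5 and Ier5l, BMH-21 2 h for Srf and CX-5461 2 h for Nr4a1. Neighbouring groups often overlapped: for Egr1 5 of the 6 neighbouring pairs did and for Srf 5 of 6, whereas for Ier2 3 of 6 did not. For Zfp36 the clear break was between CX-5461 4 h and BMH-21 8 h, 0.93 apart. For Egr3 the breaks were between control and BMH-21 2 h (1.22) and between CX-5461 4 h and 8 h (0.94).

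The inhibitors were compared directly at the same dose and time. At 2 h BMH-21 was higher than CX-5461 for 2 genes and lower for 1, against 2.47% and 1.52% of all genes. Ier3 was higher by 0.58 ± 0.13 (adjusted p = 0.0015), Ier5 higher by 0.50 ± 0.12 (adjusted p = 0.0033) and Nr4a1 lower, at -0.66 ± 0.11 (adjusted p = 4.1e-06). In all 3, which were picked by the test, the groups did not overlap, and the share of all genes without overlap is not given here. Without CX-5461 2 h replicate 2 the Ier3 difference was 0.46 (adjusted p = 0.065). At 4 h 2 were higher and 1 lower with BMH-21, against 9.35% and 8.49% of genes. Ier5 was higher by 0.93 ± 0.12 (1.91-fold, adjusted p = 4.3e-10), Ier5l higher by 0.45 ± 0.11 (adjusted p = 0.0012) and Ier3 lower, at -0.36 ± 0.13 (adjusted p = 0.041). The Ier3 call at 4 h was lost without BMH-21 4 h replicate 2 (-0.24) or without CX-5461 4 h replicate 1 (-0.38) or 2 (-0.29). Ier3 thus stood higher with BMH-21 at 2 h and lower at 4 h. After centring Ier2 (-0.18 and -0.28) and Zfp36 (0.22 and -0.17) were also called at both times, and Egr1 (0.22) and Nr4a1 (-0.11) at 4 h. Centred shares of all genes are not given for these 2 times, so the added calls are not read as particular to the members.

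At 8 h 6 of the 10 were called, all lower with BMH-21, where 67.2% of all genes were lower and 12.0% higher, so the members' share was near that of all genes. After centring the split of the 10 was 5 higher and 3 lower, against 31.1% and 40.6% of genes. Nr4a1 (-1.17 ± 0.11, 0.44 of the CX-5461 level, adjusted p = 3.5e-18), Egr3 (-1.45 ± 0.31, adjusted p = 1.4e-05) and Ier2 (-0.91 ± 0.10, adjusted p = 1.4e-13) were lower on both scales, with centred values of -0.74, -1.03 and -0.48. Ier3 was lower by -0.65 ± 0.13 as deposited (adjusted p = 5.9e-06) and -0.22 after centring (adjusted p = 0.051). Egr1 (-0.30, adjusted p = 0.0091) and Srf (-0.27, adjusted p = 0.016) turned to 0.13 and 0.15 after centring (adjusted p = 0.042 and 0.043). Without BMH-21 8 h replicate 2 the deposited differences were -0.16 for Egr1 (adjusted p = 0.19) and -0.20 for Srf (adjusted p = 0.11), and Srf also lost its call without CX-5461 8 h replicate 1 or 3 (-0.26 in each case). Ier5, Ier5l and Zfp36 were within the threshold as deposited and higher with BMH-21 after centring, by 0.23, 0.36 and 0.31. Egr2 did not pass on either scale (-0.05 ± 0.28 and 0.38 ± 0.26).

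**Figure D3:**
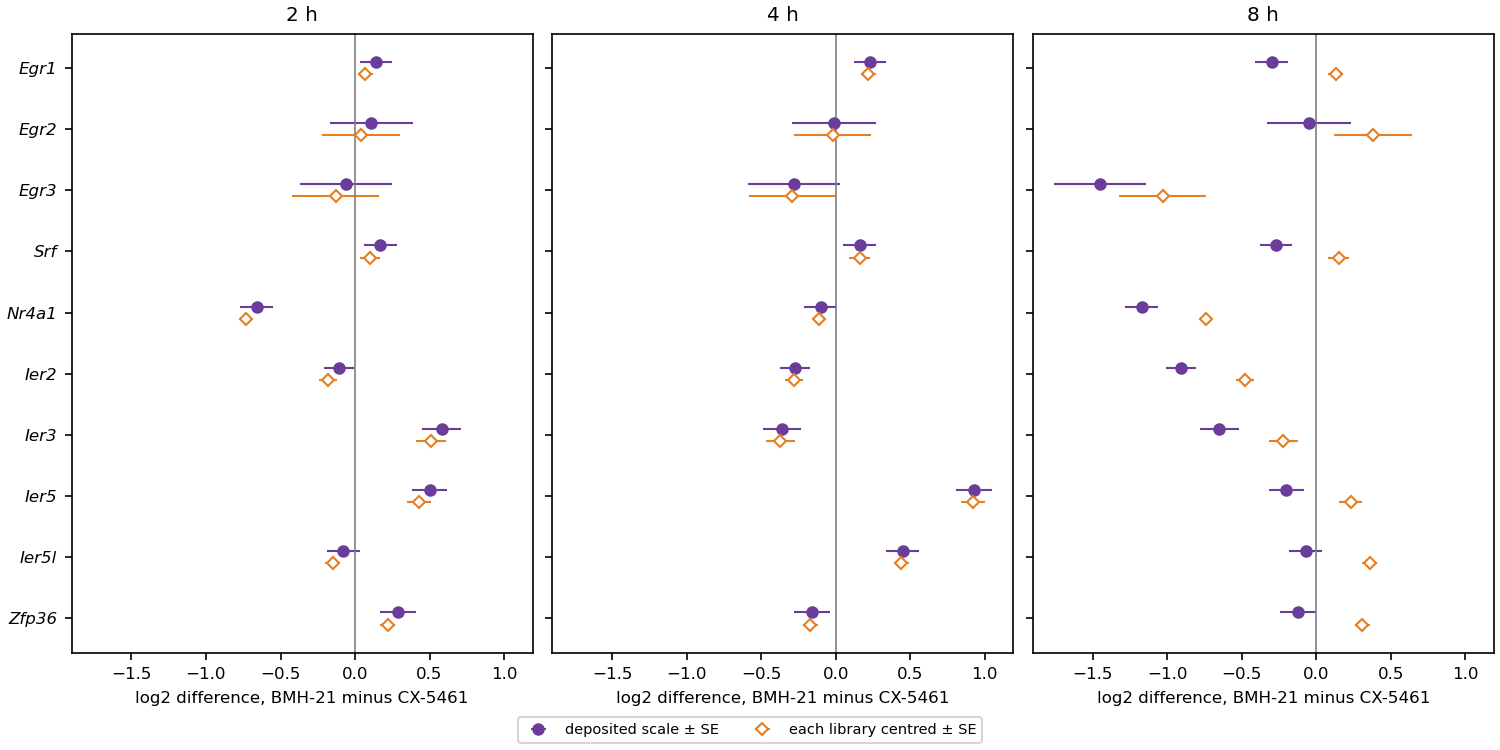
Log2 difference BMH-21 minus CX-5461 (horizontal axis) of the 10 genes at 2, 4 and 8 h, ± SE from limma, as deposited (filled) and after centring each library (open). The 2 scales nearly coincide at 2 and 4 h and lie 0.43 apart at 8 h, where Nr4a1, Egr3 and Ier2 are left of 0 on both.

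Related genes from fixed lists were set beside the members. Of the EGR, NR4A and NAB relatives in the table, 3 of 5 were tested: Egr4 and the EGR co-repressors Nab1 and Nab2. All 3 fell after 4 h of BMH-21, with Nab2 at -0.75 and Egr4 at -0.66, where 44.9% of all genes fell. At 8 h 2 of 3 fell, with Egr4 at -0.98, against 56.9% of all genes. With CX-5461 2 of 3 fell at 4 h (Egr4 at -0.89), against 51.2% of all genes. At 8 h 2 rose (Nab1 at 0.62, Nab2 at 0.33), against 35.1%. After centring Nab2 rose at 2 h of CX-5461 (0.27, adjusted p = 0.0017) and was at 0.12 at 8 h (adjusted p = 0.11). Egr4 was therefore on the opposite side of control from Egr3 at 4 h in both inhibitors. The ZFP36 relatives, which bind the same AU-rich elements, were all 3 tested. Of these, 1 fell at 2 h of BMH-21, against 11.2% of all genes. At 4 h 1 rose and 2 fell, against 22.1% and 44.9%, and at 8 h 2 fell, against 56.9%. With CX-5461 1, 3 and 0 fell at the 3 times, against 20.5%, 51.2% and 14.3% of all genes. Zfp36l2 fell under BMH-21 at each time (-0.63 at 2 h, -1.44 at 4 h, -0.83 at 8 h), and under CX-5461 at 2 h (-0.65) and 4 h (-1.06). At 8 h of CX-5461 it was at -0.24 as deposited (adjusted p = 0.074) and at -0.45 after centring (adjusted p = 1.2e-07). Zfp36l1 rose at 4 h of BMH-21 (0.29, adjusted p = 0.012) and fell at 4 h of CX-5461 (-0.33, adjusted p = 0.0047). After centring it also rose at 2 h of BMH-21 (0.28) and fell at 8 h of CX-5461 (-0.27). Zfp36l3 fell at 4 and 8 h of BMH-21 (-0.85 and -0.97) and at 4 h of CX-5461 (-0.77).

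All 6 SRF cofactors were tested. Myocd, the muscle cofactor, rose from a control mean of -2.38 by 1.91 and 3.03 at 4 and 8 h of BMH-21 and by 2.14 and 1.59 at those times of CX-5461, with group means no higher than 0.65. It was above 0 in 4 libraries, the 3 at 8 h of BMH-21 and 1 at 4 h of CX-5461, so it too was tested because of groups where it was high. The ETS cofactor Elk1 fell by 0.67 and 0.77 at 4 and 8 h of BMH-21 and by 0.45 at 4 h of CX-5461. Elk4 fell by 0.57 at 8 h of BMH-21, where its libraries overlapped control and had an SD of 0.61. Elk3 turned with time in CX-5461: it fell by 0.61 and 0.66 at 2 and 4 h and rose by 0.72 at 8 h (adjusted p = 2.5e-06, and 0.51 after centring). Mkl1, an actin-regulated cofactor, fell by 0.30 and 0.41 at 2 h of BMH-21 and of CX-5461 and rose by 0.36 at 8 h of CX-5461, where its relative Mkl2 rose by 0.32. With BMH-21 1 of the 6 fell at 2 h, against 11.2% of all genes. At 4 h 1 rose and 1 fell, against 22.1% and 44.9%, and at 8 h 1 rose and 2 fell, against 24.5% and 56.9%. With CX-5461 2 fell at 2 h, against 20.5% of all genes. At 4 h 1 rose and 2 fell, against 19.8% and 51.2%, and at 8 h 4 rose, against 35.1%. Centred counts are to be read against the centred shares of all genes given above. They were 0 up and 1 down, 3 and 1, and 4 and 2 over the BMH-21 times. Over those of CX-5461 they were 0 and 2, 3 and 2, and 3 and 2. Mkl1 and Mkl2 were then higher at 4 h of both inhibitors and at 8 h of BMH-21, and at 8 h of CX-5461 Mkl2 was at 0.10 (adjusted p = 0.15) and Elk1 and Elk4 were lower (-0.22 and -0.35).

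Of 15 cytoskeletal and matrix targets of SRF with its actin-regulated cofactors, 1 rose and 1 fell at 2 h of each inhibitor. Of all genes 8.48% rose and 11.2% fell after 2 h of BMH-21. With CX-5461 these shares at 2 h were 7.45% and 20.5%. After BMH-21 3 of the 15 rose and 8 fell at 4 h, where 22.1% of all genes rose and 44.9% fell. At 8 h 3 rose and 11 fell, against 24.5% and 56.9%. After CX-5461 3 rose and 9 fell at 4 h, against 19.8% and 51.2%, and 5 rose and 6 fell at 8 h, against 35.1% and 14.3%. The last split was 4 and 9 after centring, against 29.3% and 44.7%. The other centred splits were 3 and 1 at 2 h of each inhibitor, 4 and 7 at 4 h and 4 and 10 at 8 h of BMH-21, and 4 and 8 at 4 h of CX-5461. Their median change was -0.65 after 8 h of BMH-21, where all genes were at -0.40, and -0.15 after 8 h of CX-5461, where all genes were at 0.11. Cyr61, a matrix protein also driven by YAP, rose at every time (0.85, 1.87 and 2.39 in the BMH-21 series, and 0.72, 1.34 and 1.41 in that of CX-5461). Ctgf, its relative, fell by 0.95 and 1.59 at 2 and 4 h of BMH-21 and by 1.08 at 2 h of CX-5461. It was at -0.05 at 4 h of CX-5461 (adjusted p = 0.71) and rose by 0.48 at 8 h (adjusted p = 0.00014, and 0.27 after centring). At 8 h of BMH-21 Ctgf was at 0.03 as deposited (adjusted p = 0.8) and rose by 0.24 after centring (adjusted p = 0.00011). Contractile genes of the list went both ways. Myl9 fell (-1.43 after 8 h of BMH-21). Acta2 fell at 4 and 8 h of BMH-21 (-0.43 and -1.16) and of CX-5461 (-0.50 and -0.75). At 4 h of either inhibitor Acta2 overlapped control. Cnn1 rose by 0.65 and 1.25 at 4 and 8 h of BMH-21 and by 0.81 at 4 h of CX-5461. Its mean at 8 h of CX-5461 was 2.68 (SD 0.11), against 1.6 (SD 0.08) in control.

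Of 26 other immediate and delayed early genes, 24 were tested, and they split. With BMH-21, 10 rose and 9 fell at 2 h, against 8.48% and 11.2% of all genes. At 4 h 8 rose and 13 fell, against 22.1% and 44.9%, and at 8 h 10 rose and 8 fell, against 24.5% and 56.9%. With CX-5461, 5 rose and 9 fell at 2 h, against 7.45% and 20.5%, 9 rose and 7 fell at 4 h, against 19.8% and 51.2%, and 16 rose and 2 fell at 8 h, against 35.1% and 14.3%. After centring the splits were 11 and 11, 8 and 11, and 13 and 7 for BMH-21, and 6 and 9, 11 and 7, and 14 and 6 for CX-5461. The largest rise of the list at 2 h of either inhibitor and at 4 h of CX-5461 was that of Plk2, a polo-like kinase, by 3.32, 3.22 and 2.81. At 4 and 8 h of BMH-21 it was that of Dusp2, a phosphatase of ERK, by 3.88 and 3.59, and at 8 h of CX-5461 that of Btg2, an antiproliferative gene, by 2.51. Plk2 and Btg2 are also known targets of p53. The largest fall was that of Pim1, a kinase induced by LIF signalling, at 2 and 4 h of BMH-21 (-1.41 and -2.44) and at 2 h of CX-5461 (-1.38). In the other 3 comparisons it was that of Sgk1, a serum-induced kinase, which fell by 1.69 at 8 h of BMH-21 and by 1.07 and 0.74 at 4 and 8 h of CX-5461.

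**Figure D4:**
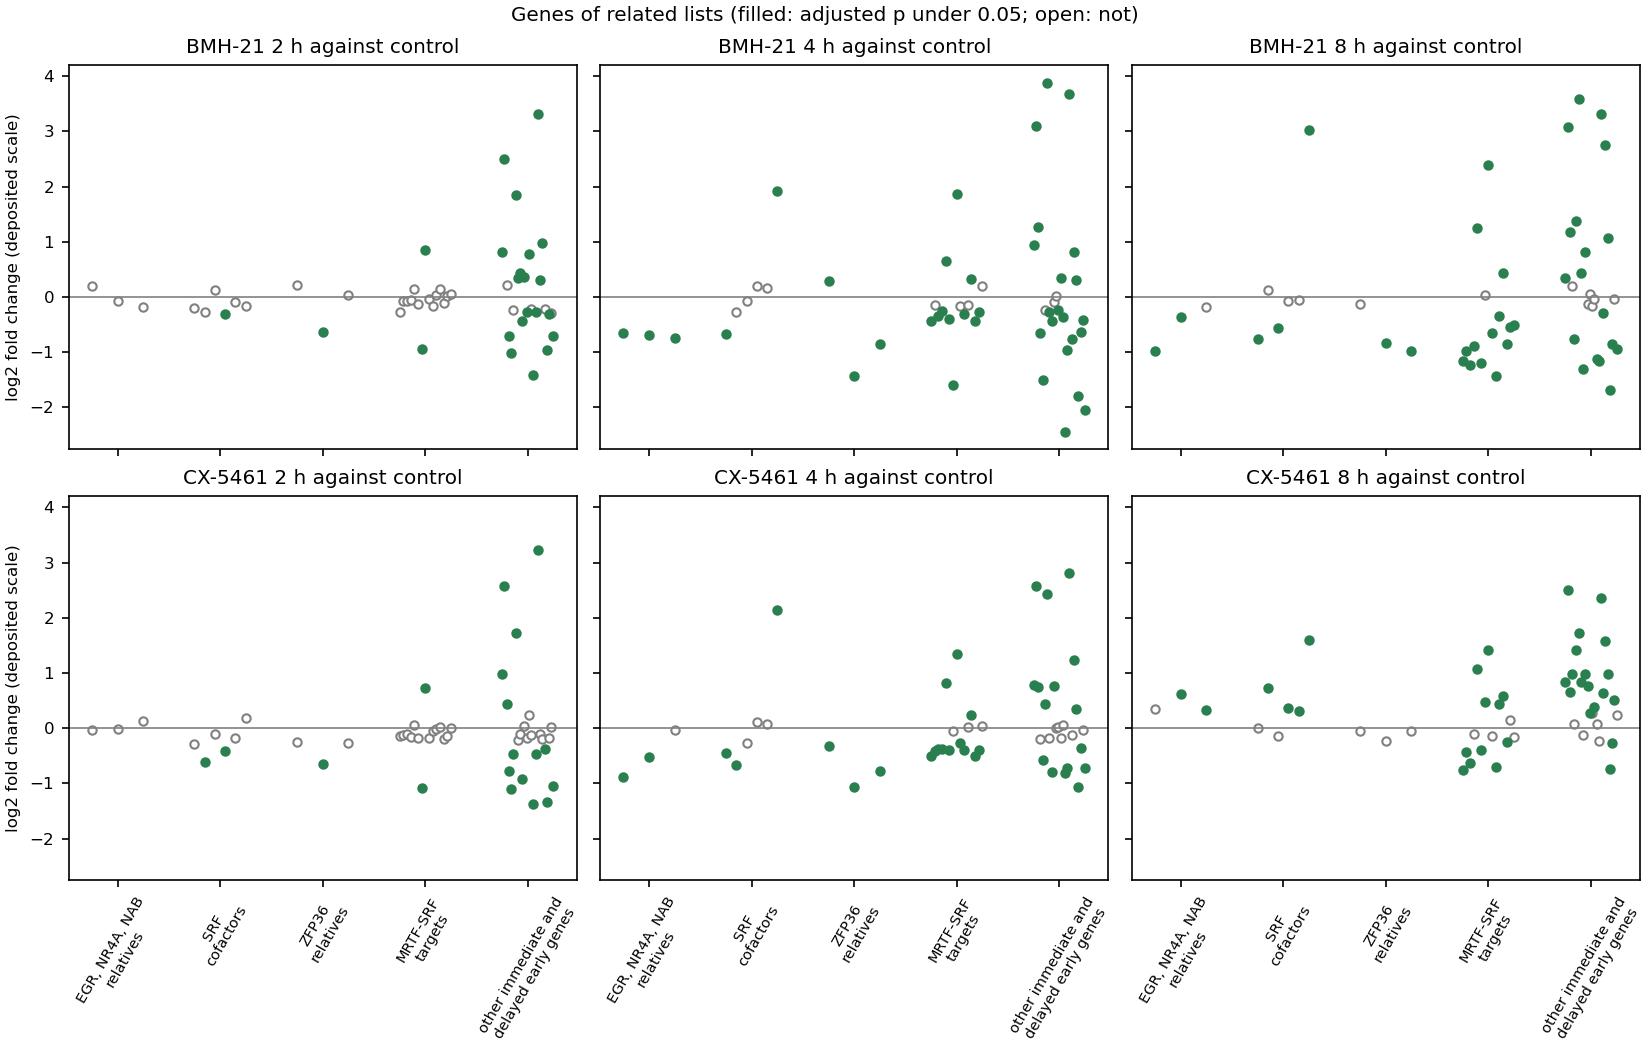
Log2 fold change against control on the deposited scale (vertical axis) of each tested gene in 5 related lists (horizontal axis), with 1 panel per inhibitor and time. Filled points passed an adjusted p of 0.05 and open points did not; the list of other early genes spans from Pim1 at -2.44 to Dusp2 at 3.88 after 4 h of BMH-21.

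For the 3 members with the widest range of group means, the tested genes with the most similar course were found by Pearson's r over the 7 group means of centred values. Closest to Egr3 were Efs (r = 0.962), Figf (0.955) and Dclk3 (0.953). Efs had deposited means of 4.57 in control and 5.80 after 8 h of CX-5461, and Figf of 0.86 and 2.21. Closest to Zfp36 were Clec16a, Gm10696 and Ccng2, an atypical cyclin, with r of 0.996, 0.993 and 0.992. Ccng2 had means of 2.43 in control and, at 8 h, 4.25 with BMH-21 and 4.12 with CX-5461. Closest to Ier5 were Ccdc134 (0.974), Isg20 (0.971) and Nuak2 (0.963), with Nuak2 at 2.85 in control and 3.96 after 4 h of BMH-21. With 7 points from shared libraries, picked as the best of 14666 genes, these values are descriptions.

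The 9 genes with printed positions lie apart on GRCm38 (GENCODE M21), apart from Ier3 and Srf, which share a chromosome. Egr2 spans chr10:67535475-67542188, Egr3 chr14:70077203-70082614, Srf chr17:46548329-46556175 and Nr4a1 chr15:101254269-101274795. Ier2 spans chr8:84661331-84662852, Ier3 chr17:35821684-35822923, Ier5 chr1:155096361-155099636, Ier5l chr2:30471537-30474219 and Zfp36 chr7:28376784-28380253. Ier2, Ier5, Ier5l, Srf and Zfp36 are on the minus strand and the other four on the plus strand.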

How the data were processed

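Poly(A) RNA libraries were made with a directional kit after DNase treatment, per the labels' protocols. Per the submitters' processing notes the tools were Trim Galore 0.5.0, TopHat2 2.1.1, R 4.0.5, DESeq2 1.30.1, edgeR 3.32.1 and limma 3.46.0 with mm10, in roles not given in the sources used here. The authors deposited log2 values under a name that says voom. All of them (100%, tolerance 0.01 reads) gave whole reads after removing an offset of 0.5.

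A mean per group was fitted across the 21 libraries in R 4.3.3 with limma 3.58.1, using a mean-variance trend, two-sided tests and p-values adjusted by Benjamini-Hochberg over 14666 genes. The prior carried 111.5 degrees of freedom as deposited and 8.5 after centring, against 14 from replicates. As deposited, p-values thus rest mostly on the spread shared over all tested genes. The fit was also tested on made-up reads with known changes, whose spread was taken from the fit to the real data. Of 200 changed genes 183 were recovered, with 5 false calls. The made-up reads used the deposited effective sizes, so the scaling was not tested. Replicates differed beyond counting noise (chi-square per degree of freedom 2.58 to 26.01), so each counted as 1 sample.

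The members and lists were chosen with earlier results of these data known. Named genes were the members, the largest rise and fall past the threshold in each related list and comparison with control, and the 3 genes most like each of 3 members; marker lists are given by their summed levels. Elk4, Mkl2, Cnn1, the markers Pax6 and Mesp1, and other values of named list genes were added after they were seen. Promoters are RefSeq's, and lengths and positions are from GENCODE M21. Alternatives were other filters, offsets, scalings and variance models, a replicate block and leaving out each library.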

Additional observations from a re-analysis of the deposited data

Results flagged for a closer look

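Differences between the inhibitors at matched dose and time that passed the limma test of the difference itself are listed here with their values. At 2 h the log2 difference, BMH-21 minus CX-5461, was 0.58 for Ier3, 0.50 for Ier5 and -0.66 for Nr4a1. At 4 h it was -0.36 for Ier3, 0.93 for Ier5 and 0.45 for Ier5l. At 8 h it was -0.30 for Egr1, -1.45 for Egr3, -0.91 for Ier2, -0.65 for Ier3, -0.27 for Srf and -1.17 for Nr4a1. At 8 h 67.2% of all genes were lower with BMH-21 and 12.0% higher. In all 12 differences the values of the 2 groups did not overlap. The 12 were picked by the test, and the share of all genes without overlap is not given here. Egr1 and Srf at 8 h had the opposite sign after centring (0.13 and 0.15) and were not past the threshold without BMH-21 8 h replicate 2 (-0.16 and -0.20), and Ier3 at 8 h was no longer past the threshold (-0.22).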

How the results depend on the processing

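Counts of members called depended on the scaling in 3 comparisons. With libraries centred, median-ratio factors and quantile normalization they were 8, 8 and 7 for BMH-21 4 h against 2 h (3 as deposited), 5, 6 and 5 for the inhibitors at 2 h (3 as deposited), and 7, 7 and 6 at 4 h (3 as deposited). In these 3 comparisons the shares of all genes are given only for the deposited scale. The larger counts are therefore not read as a result about the members. Setting values below 0 to 0 gave 4 for CX-5461 4 h against control (7 as deposited), and requiring log2 above 1 gave 3 for CX-5461 8 h against 4 h (5 as deposited), with Egr2 and Egr3 not tested. Leaving out 1 library gave 4 to 7 members for BMH-21 2 h against control, the 4 without BMH-21 2 h replicate 3, and 3 to 5 for CX-5461 8 h against 4 h, the 3 without CX-5461 4 h replicate 1 or 3. The other counts stayed within 1.5 times under every setting, and the cause of these moves was not tested.

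Signs turned mostly for values near 0 or where a scaling shifted all genes. For the inhibitors at 8 h, centring, median-ratio factors and quantile normalization gave Egr1 0.13, 0.17 and 0.16, Egr2 0.38, 0.43 and 0.29, Ier5 0.23, 0.27 and 0.23, Ier5l 0.36, 0.40 and 0.39, Srf 0.15, 0.20 and 0.16, and Zfp36 0.31, 0.35 and 0.33. In the same order Egr1 after 8 h of BMH-21 was 0.06, 0.20 and 0.37, Ier3 after 2 h of BMH-21 0.07, 0.08 and 0.04, Ier5 from 4 to 8 h of CX-5461 -0.16, -0.15 and -0.18, and Nr4a1 at that step -0.18, -0.17 and -0.15. With centring and median-ratio factors Egr2 from 2 to 4 h of BMH-21 was 0.06 and 0.08, Ier2 from 4 to 8 h of CX-5461 -0.07 and -0.06, Ier3 after 4 h of CX-5461 0.04 and 0.13, and Ier5 from 2 to 4 h of CX-5461 0.01 and 0.06. Centring also gave Egr1 -0.07 after 8 h of CX-5461. With median-ratio factors and quantile normalization Srf after 8 h of BMH-21 was 0.03 and 0.07, Srf from 2 to 4 h of BMH-21 0.03 and 0.09, Egr1 from 2 to 4 h of CX-5461 0.05 and 0.16, and Ier2 after 2 h of CX-5461 0.03 and 0.01. Quantile normalization alone gave Egr2 -0.08 and -0.11 after 4 h of BMH-21 and CX-5461, 0.02 between them and -0.47 from 2 to 4 h of CX-5461, Egr3 -0.05 from 2 to 4 h of BMH-21, and Srf 0.08 from 2 to 4 h of CX-5461. A floor at 0 gave Egr2 0.02 from 2 to 4 h of BMH-21 and 0.02 between the inhibitors at 4 h, and voom weights gave Ier5 0 from 2 to 4 h of CX-5461.

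Leaving out 1 library turned signs in these ranges. From 2 to 4 h of BMH-21 Egr1 ran from -0.02 to 0.15, Egr2 from -0.25 to 0.17 and Nr4a1 from -0.03 to 0.10. From 2 to 4 h of CX-5461 Egr1 ran from -0.11 to 0.08, Egr2 from -0.06 to 0.20, Ier5 from -0.03 to 0.06 and Srf from -0.16 to 0.05, and from 4 to 8 h Egr1 from -0.15 to 0. Between the inhibitors Egr2 ran from -0.08 to 0.21 at 2 h, -0.25 to 0.16 at 4 h and -0.17 to 0.08 at 8 h, Egr3 from -0.26 to 0.04 at 2 h and Ier5l from -0.13 to 0.01 at 2 h. Against control Ier3 after 2 h of BMH-21 ran from -0.05 to 0.03 and Zfp36 after 4 h from -0.06 to 0.13. None of these was called.

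Replicate numbers did not pair the libraries: same-numbered libraries deviated together with a mean r of -0.02 over 63 pairs, and 1 of 21 correlated best with its own number. With the number as a replicate block, 1 of 130 member values lost its call, Egr2 after 2 h of CX-5461 (0.70, adjusted p = 0.051). With the replicate block and centring together the counts were 7 for BMH-21 4 h against 2 h, 5 for the inhibitors at 2 h and 7 at 4 h, and the turned values were those of centring alone. Low depth limits Egr2 (11 to 88 reads per library) and Egr3 (6 to 90 reads).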
